A study of Mus musculus with 5 samples.

Results

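Strong A bins were 50 kb stretches of the mouse genome whose first principal component (PC1) of the Hi-C contact map lay above 1 in each of 5 libraries from hippocampal neuronal nuclei. Of 44650 autosomal bins with a value in all 5 libraries, chromosome 7 left out, 5862 met this rule (293.1 Mb, 13.1%). The mirror set, strong B bins with PC1 below -1 in each library, numbered 5183 (259.2 Mb, 11.6%). The members were chosen by PC1 itself, in all 5 libraries, so their levels, and every difference in PC1 between libraries within the set, are given as a description. Calls among the members come from a fit over all bins and say how that fit sorted them; they are no test of the set.

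Hi-C records which stretches of DNA were neighbours in the nucleus, by ligating and sequencing them as pairs. The main axis of such a map divides chromosomes into compartment A, which is open, gene-rich and rich in transcription, and compartment B, which is closed, gene-poor and often held at the nuclear lamina. The strongest A regions of many cell types lie in the nuclear interior near speckles, bodies that store splicing factors. In HOMER, the program that made the values, a positive PC1 stands for A.

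The mice carried a tamoxifen-inducible Cre driven by the promoter of Arc, a gene that neurons switch on soon after activity, with a floxed reporter for yellow fluorescent protein (the labels' ArcCreERT2 x R26R-STOP-floxed line, genotype label +/+). They received 4-hydroxytamoxifen before fear conditioning with a foot shock, and nuclei were sorted after staining for NeuN, a neuronal nuclear protein, and for GFP. There were 2 Basal libraries, 1 Early library and 2 Late libraries, so named by their titles. All 5 carry the same treatment label (foot shock and collection on day 0, no recall), so the states are used only as far as the titles give them. A group was 100000 nuclei pooled from 2 animals, and the labels call the replicates biological. The sources used here do not give age, sex or the sorted fraction of each group. They speak of 2 replicates, of which 1 was used for Early.

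Each library was standardised per chromosome by the time of deposit. Over the 18 autosomes the chromosome means lay between -0.00024 and 0.013 and the SDs between 1.00 and 1.01. A PC1 of 1 is therefore about 1 SD of its own chromosome, and levels on different chromosomes are not on a common scale. The files hold no read counts, so depth is unknown. Local noise was estimated from the differences between libraries. It is the scatter of a bin's difference against that of its neighbours 100 kb away, divided among the libraries. A fine-scale difference particular to a library or its state therefore counts as noise of that library. Local noise came to 0.127 and 0.129 for the Basal libraries and 0.226 for Early. For Late replicates 1 and 2 it was 0.114 and 0.204.

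The median PC1 of strong A bins was 1.498 and 1.497 in the Basal replicates, 1.43 in the Early library, and 1.44 and 1.43 in the Late replicates. The middle 50% of members ran from 1.32 to 1.67 in each Basal library and from 1.23 to 1.65 in the Early one. They ran from 1.301 to 1.58 in Late replicate 1 and from 1.26 to 1.62 in Late replicate 2. The highest single bin reached 2.62, in Early. Early had the widest spread (SD 0.286) and Late replicate 1 the narrowest (SD 0.194). These libraries also had the highest and the lowest local noise over strong A bins, 0.208 and 0.0984. Early was the lowest of the 5 libraries in 1814 members (30.9%) and the highest in 1585 (27.04%), while Late replicate 1 was the highest in 568 (9.69%). A member ranged over its 5 libraries by a median of 0.362 and at most 1.39, while a strong B bin ranged by a median of 0.329.

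**Figure D1:**
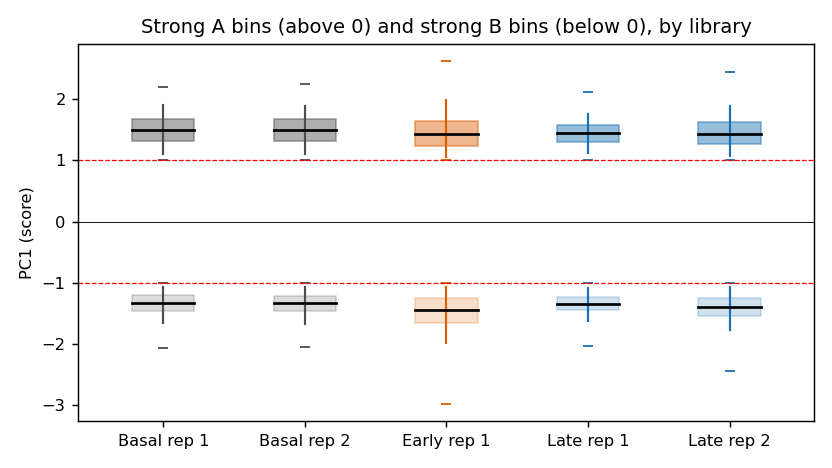
PC1 score (vertical axis) of strong A bins (upper boxes) and strong B bins (lower boxes) in each library. Boxes span the middle 50% of bins, black lines are medians, vertical lines run from the 5th to the 95th percentile, short dashes mark the lowest and highest bin, and red dashed lines mark the thresholds of 1 and -1; the Early boxes are the tallest on both sides.

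The threshold fell inside a continuous range. The members nearest to it were chromosome 3 from 146150001 to 146200000, with a lowest library value of 1.0001, chromosome 5 from 136700001 to 136750000 (1.0001) and chromosome 3 from 84950001 to 85000000 (1.0002). The bins just outside it were chromosome 11 from 52100001 to 52150000, whose lowest value of 0.99999 rounds to 1, chromosome 11 from 51850001 to 51900000 (0.9999) and chromosome 17 from 31550001 to 31600000 (0.9998). Between 9000 bins in Early and 10572 in Late replicate 1 lay above 1 in a single library (20.2% to 23.7%). The members were 65.1% and 55.4% of these lists.

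The libraries that a selection had not used gave a measure of how firmly strong A was held. Of the 9319 bins above 1 in both Basal libraries, 7298 (78.3%) were also above 1 in both Late libraries and 6691 (71.8%) in the Early library. Only 9 of the 9319 (0.097%) were negative in both Late libraries, and 131 (1.41%) were negative in Early. Late shares need both libraries to pass and Early shares only 1, so the Late and Early figures are not a like comparison. Library by library, bins above 1 in a Basal library were at or below 0 in a Late library in 0.297% to 0.424% of cases. The same share in the Early library was 1.53% to 1.68%. Taken from the other end, 8587 bins were above 1 in both Late libraries, of which 7298 (84.99%) were above 1 in both Basal libraries and 2 were negative in both. For bins below -1 in both Basal libraries, 6043 of 7963 (75.9%) were below -1 in both Late libraries and 6235 (78.3%) in Early, and 0 were positive in both Late libraries. These counts of 0 and 9 rest on the stated bins and have no test, since bins are not replicates.

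Single libraries gave shares between replicates to set beside these. A bin above 1 in a Basal library was above 1 in the other Basal library in 91.9% of cases in one direction and 92.2% in the other. Both shares come from a single pair of libraries and count the same 9319 bins. Such a bin was above 1 in a Late library in 82.7% ± 5.3 of cases (SD, n = 4 pairs that reuse the same 4 libraries). Between the Late libraries the share was 81.2% in one direction and 87.8% in the other. The shares across states thus lay below those between Basal replicates, and the range from Basal to Late, 77.9% to 87.6%, overlapped the range between Late replicates. From Basal to Early the shares were 69.4% and 69.6%. In the reverse direction, from the shorter list of 9000 Early bins, 78.2% were above 1 in each Basal library. Early has 1 library, and the highest local noise, whose part in the lower shares from Basal to Early was not tested.

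Retention followed the Basal level. Among bins with a mean Basal PC1 of 1 to 1.2, 54.1% (1018 of 1881) were above 1 in both Late libraries and 52.1% in Early. Above 1.8, 99.1% (673 of 679) were above 1 in both Late libraries and 97.2% in Early, and none of the 679 was negative in Early or in both Late libraries. A bin far above the threshold needs a larger difference to cross it, so a rise with level follows from the threshold itself. The mirror bins rose in the same manner, with 57.8% and 60.8% retained in Late and Early at a mean Basal PC1 of -1 to -1.2.

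**Figure D2:**
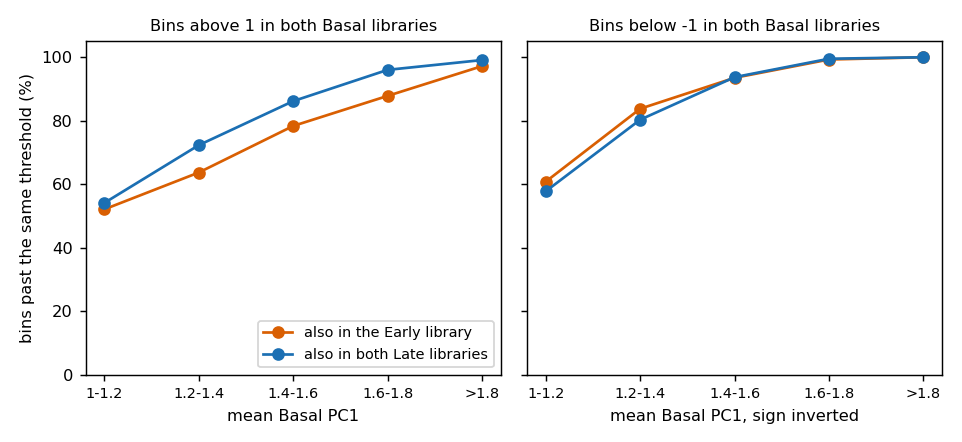
Percent of bins (vertical axis) above 1 in both Basal libraries (left) or below -1 in both (right) that also passed the threshold in the Early library (orange) or in both Late libraries (blue), by mean Basal PC1 (horizontal axis). For bins above 1 the Late line runs from 54.1% to 99.1% and the Early line from 52.1% to 97.2%.

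Leaving each library out of the rule showed how many bins it alone kept out. A left-out Basal or Late library has its replicate among the other 4 libraries, while Early has none. The shares are therefore not a like comparison. Of bins above 1 in the other 4 libraries, Basal replicates 1 and 2 held 97.2% and 97.3% above 1, Late replicates 1 and 2 held 97.4% and 92.7%, and Early held 80.3%. Early alone therefore kept 1436 of 7298 bins out, of which 746 (51.95%) lay between 0.8 and 1 in Early and 59 at or below 0. None of the bins tested against the Basal or Late libraries in this way was at or below 0. The 59 were gathered on chromosomes 19 (37 bins), 16 (17) and 15 (3), with 1 each on chromosomes 4 and 5.

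Chromosome 19 showed how a single library shaped the set. Of its 146 bins above 1 in the 4 libraries other than Early, 63 lay proximal to the chromosome's midpoint at 30.65 Mb, with a median PC1 of 1.94 in Early, against 1.36 in Basal, and 55 of them were members. The other 83 lay distal to it, with a median of 0.099 in Early, against 1.36 in Basal, and 8 were members. The Late medians of the proximal and distal bins were 1.32 and 1.301, both close to Basal. On chromosome 16 the proximal bins (208) had a median of 1.23 in Early, against 1.52 in Basal, and the distal bins (73) one of 1.81 in Early, against 1.49 in Basal. The Late medians there were 1.498 for the proximal bins, close to Basal, and 1.65 for the distal bins, between Basal and Early. Only the proximal and distal parts were compared, and a slope along the chromosome was not measured. With 1 Early library, whether these differences between the parts belong to the state or to the library cannot be told apart.

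Members were unevenly spread over chromosomes. Strong A made up 19.3% of the bins of chromosome 11, 16.02% of chromosome 4 and 15.6% of chromosome 2, but 5.41% of chromosome 19, 6.56% of chromosome 9 and 9.15% of chromosome 13. On 12 of the 18 chromosomes strong A bins outnumbered strong B bins, while on chromosomes 5, 9, 13, 15, 17 and 19 strong B bins were the more numerous. Dropping Early from the rule raised the share on each chromosome, and leaving out a library cannot lower it. Chromosome 19 rose to 12.5%, chromosome 16 from 9.69% to 14.8%, chromosome 17 from 9.59% to 15.5% and chromosome 15 from 10.5% to 15.6%.

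The share of strong A went with how each chromosome was divided. A chromosome centred at 0 with more A than B bins must have a lower mean positive PC1 than mean negative PC1 in size. On chromosome 9, 55.5% of bins were positive (mean over the 5 libraries), the mean positive PC1 was 0.789 and the mean negative PC1 -0.985. On chromosome 4, 45.8% were positive, with means of 0.972 and -0.816. Across the 18 chromosomes the strong A share and the share of positive bins had a Pearson r of -0.63 (Spearman's rho -0.55), and the strong B share had an r of 0.81 (rho 0.72). The points share the scaling per chromosome, and these values are a description with no test.

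The relation of strong A to gene density across chromosomes differed between libraries. Protein-coding genes of RefSeq's GRCm38.p6 table were counted per chromosome and divided by the length of its bins. Chromosome 11 had the most, 13.5 per Mb, and the largest strong A share. Chromosome 19 came next with 12.1 per Mb and had the smallest. Over the 18 chromosomes r was -0.026 (rho 0.073) for strong A and 0.60 (rho 0.66) for strong B, again as a description of values scaled within each chromosome. For the share of bins above 1 in a single library r was 0.595 and 0.512 for the Basal replicates (rho 0.457 and 0.323). It was -0.101 for Early (rho -0.065). For Late it was 0.413 (replicate 1, rho 0.298) and 0.0085 (replicate 2, rho -0.0072), so replicates of the same state differed as well. Since the scaling removes differences in level between chromosomes, these values say nothing of gene density along a chromosome.

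**Figure D3:**
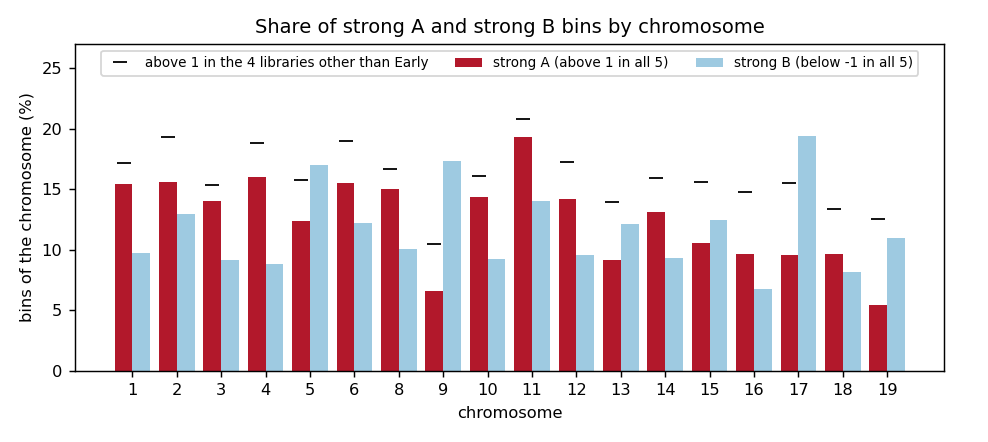
Percent of each autosome's bins (vertical axis) that were strong A (red bars) or strong B (blue bars); black dashes give the share above 1 in the 4 libraries other than Early. Strong A ran from 5.41% on chromosome 19 to 19.3% on chromosome 11, and strong B led on chromosomes 5, 9, 13, 15, 17 and 19.

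Along chromosomes strong A was densest towards the distal end. Mouse autosomes have their centromere at the start of the numbering. Strong A bins made up 20.2% of the most distal 20% of bins, against 13.1% of all bins and 9.41% of the most proximal 20%. Strong B bins made up 6.34% of the most distal 20% and 12.8% of the most proximal 20%, with their largest share, 14.8%, in the middle 20%. In the last 5 Mb of the chromosomes the strong A and strong B shares were 23.6% and 10.2%. The distal share exceeded the proximal one on 13 of 18 chromosomes, most on chromosome 4 (46.2% against 0.503%). It was the lower one on chromosomes 9, 13, 14, 16 and 19. On chromosome 19 (3.45% against 22.3%) the difference between proximal and distal bins in Early, described above, runs in that direction.

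Strong A bins formed 1086 uninterrupted runs with a median length of 150 kb and a mean of 270 kb. A run of at least 500 kb held 51.9% of all members (162 runs), and 55 runs of 1 Mb or more held 27.6%. The strong B bins formed 877 runs, 56 of 1 Mb or more, with the longest at 4850 kb, against 3200 kb for strong A. Of 250 gaps of a single bin between runs, 220 (88.0%) failed the rule in 1 library only, which was Early in 123 and Late replicate 2 in 59. No gap bin was negative in any library, and their median over the 5 libraries' mean was 1.26.

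The longest run lay on chromosome 1 from 92500001 to 95700000 (64 bins), with a mean PC1 of 1.64 in both Basal libraries, 1.69 in the Early library, and 1.58 and 1.62 in the Late ones. Chromosome 2 held the second from 118750001 to 121400000 (53 bins), where the Basal libraries stood at 1.67 and 1.68, Early at 1.53, and Late at 1.597 and 1.66. Chromosome 2 also held the next from 90600001 to 92800000 (44 bins), where the Basal libraries stood at 1.7014 and 1.72, Early at 1.76, and Late at 1.64 and 1.801. Early was the highest library in the first of these 3 runs and the lowest in the second.

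Chromosome 10 from 60450001 to 62550000 and chromosome 12 from 112250001 to 114350000 followed, with 42 bins and means over the 5 libraries of 1.62 ± 0.029 and 1.603 ± 0.052 (SD, n = 5 libraries). The other runs among the 10 longest lay on chromosome 8 from 96450001 to 98350000 (mean 1.67), chromosome 11 from 119300001 to 121200000 (1.396), chromosome 2 from 179650001 to 181450000 (1.64), chromosome 13 from 58050001 to 59850000 (1.58) and chromosome 4 from 147400001 to 149200000 (1.54). The run on chromosome 4 was at 1.44 and 1.49 in Late, against 1.59 in both Basal libraries, the widest gap between these groups among the 10. That the chromosome 11 run is the lowest of the 10 has to be read on that chromosome's own scale.

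Among runs of at least 3 bins, the highest mean over the 5 libraries was 1.87, on chromosome 16 from 96150001 to 96400000, with 1.88 in both Basal libraries, 1.85 in the Early one, and 1.82 and 1.91 in the Late ones. Chromosome 15 from 88500001 to 89400000 had a mean of 1.86, where Basal stood at 1.99 and 1.94, Early at 1.69, and Late at 1.83 and 1.84. Chromosome 14 from 76100001 to 76600000 (1.83), chromosome 3 from 107050001 to 108700000 (1.82) and chromosome 15 from 101850001 to 102650000 (1.79) came next. Of these 5 runs, the one on chromosome 14 differed most between libraries, ranging from 1.63 in Basal replicate 1 to 2.09 in Early.

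Strong A bins lay away from the borders of compartment A, as the rule itself favours. The bins positive in all 5 libraries formed 1100 domains, of which 298 (27.1%) held a strong A bin. Domains with a member had a median length of 1750 kb, against 150 kb for those without. Of 524 domains of up to 200 kb, 0 held a member. Of 89 domains of over 2 and up to 4 Mb, 86 did, as did all 43 domains over 4 Mb, in which 45.3% of bins were members. No domain was made of members alone. The median distance of a strong A bin to the nearest bin negative in any library was 900 kb, against 300 kb for the other bins positive in all 5 libraries and 950 kb from a strong B bin to the nearest positive one. Of the members, 1.09% lay within 100 kb of a negative bin and 1 of 5862 directly beside one. PC1 was computed in 100 kb windows at 50 kb steps, so neighbouring bins share reads, and the distances are a description. On such values a bin above 1 in each library can rarely lie beside a negative one. The contrasts in domain length and distance therefore follow in part from the threshold.

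From the edges of the 162 runs of at least 500 kb, PC1 fell steeply and then slowly. The rule fixes part of the step at the edge. Bins inside lie above 1 in each library, and the first bin outside failed in at least 1. In Basal replicate 1 the mean was 1.58 at 225 kb inside the edge, 1.39 in the last bin inside and 1.197 in the first bin outside, then 1.04 at 125 kb and 0.835 at 475 kb outside. Late replicate 1 had 1.51, 1.37, 1.22, 1.09 and 0.849 at the same places. Of the bins 475 kb outside an edge, 37.3% were again members and 23.8% were negative in at least 1 library. Early was lowest in the first bin outside, at 1.05, where the rule places bins that failed in any library.

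**Figure D4:**
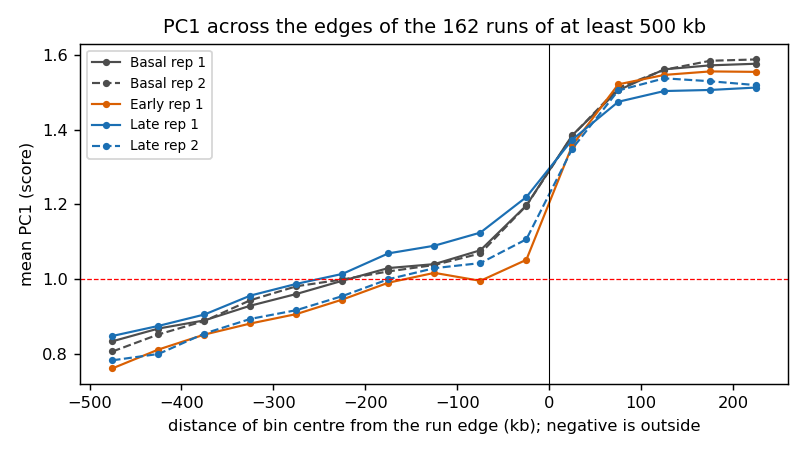
Mean PC1 score (vertical axis) by distance of the bin from the edge of a run (horizontal axis, kb; positive inside, negative outside), over both edges of 162 runs, 1 line per library. All lines drop across the edge, as the rule in part requires, and stay above 0.76 at 475 kb outside. Late replicate 1 is the lowest line at 75 to 225 kb inside and the highest at 25 to 475 kb outside.

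Within the strong A set the libraries ordered the bins with different fidelity. Pearson's r over the 5862 members was 0.838 between the Basal replicates (rho 0.842) and 0.611 between the Late replicates (rho 0.601). Between a Late and a Basal library it was 0.493 to 0.652, and between Early and a Basal library 0.394 and 0.400. Over all 44650 bins the Basal replicates had an r of 0.987. A set cut at 1 spans a small part of the range, which lowers r, and the bins share neighbours, so these values carry no p.

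The comparison of Late with Basal asked whether the strongest A regions sat at another level in the Late state. The mean PC1 of strong A bins was 1.44 and 1.45 in the Late libraries, against 1.4995 and 1.4975 in the Basal libraries, a difference of -0.050. Both Late values lay below both Basal values. No test is given, since these libraries chose the members. The direction depended on the scaling: with quantile-normalised values the difference was 0.0053. Both Late libraries lay below both Basal libraries in 2058 members (35.1%, and 31.6% of all autosomal bins). They lay above them in 985 (16.8%, and 29.4% of all autosomal bins). The strong B bins tilted the same way, with 32.2% lower and 21.1% higher in Late and a mean difference of -0.034. The rule itself bounds these differences, because a member that fell to 1 would have left the set.

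By chromosome, the Late mean of strong A was the lower one on 14 of 18 chromosomes. The largest fall in size was on chromosome 18, with 1.47 and 1.48 in Late, against 1.61 and 1.62 in Basal (169 bins, difference -0.14). Chromosome 5 (-0.13) and chromosome 8 (-0.11) were next. On chromosomes 6, 9, 16 and 17 the Late mean was the higher one, by 0.0045, 0.030, 0.037 and 0.055. Chromosome 17 had 1.2004 and 1.26 in Late, against 1.19 and 1.16 in Basal. These values have no test and rest on 2 libraries a group.

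Bin by bin, limma with Benjamini-Hochberg adjustment over 47652 bins called 114 of the 5862 strong A bins (1.94%) at an adjusted p under 0.05. Late was higher in 27 and lower in 87. The rule used the same PC1 values, so the count and its split describe the members only. Over all bins 16.4% were called, 8.78% higher and 7.63% lower. Here and in the comparisons with Early below, all bins means the fitted ones, X included. Over the autosomal bins without chromosome 7, from which the members come, 14.3% were called, 7.73% higher and 6.54% lower. Of the strong B bins 1.06% were called, 0.463% higher and 0.598% lower. The rule keeps bins with large differences out of the set, and nothing is read from the lower share among members. With quantile-normalised values the split was 56 higher and 42 lower. The count was 0 with all sequences kept as deposited (729 members at an unadjusted p under 0.05 in limma as reported, 550 under this setting). That setting adds chromosome 7, on which Late replicate 1 has the opposite sign. Leaving out Basal replicate 1 or Basal replicate 2 gave 3, leaving out Late replicate 1 gave 769 and leaving out Late replicate 2 gave 172.

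Among runs of called bins, the largest mean fall was in a single bin on chromosome 18 from 77450001 to 77500000, at 1.06 and 1.07 in Late, against 1.73 and 1.74 in Basal (difference -0.67). Chromosome 4 from 151600001 to 151650000 had 1.33 and 1.02 in Late, against 1.75 and 1.92 in Basal (-0.66). Chromosome 18 from 82650001 to 82750000 had 1.12 and 1.301 in Late, against 1.94 and 1.76 in Basal (-0.64). The groups did not overlap in any of these regions, which were chosen for their large differences. Chromosome 10 from 69150001 to 69200000 (-0.63) and chromosome 1 from 156850001 to 156900000 (-0.58) were next.

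The largest mean rise among runs of called bins lay on chromosome 18 from 55050001 to 55150000, at 1.72 and 1.82 in Late, against 1.14 and 1.196 in Basal (difference 0.60). Chromosome 14 from 79650001 to 79700000 had 1.48 and 1.92 in Late, against 1.15 and 1.07 in Basal (0.59). Chromosome 14 from 73500001 to 73550000 (0.54), chromosome 16 from 43950001 to 44000000 (0.54) and chromosome 14 from 76550001 to 76600000 (0.54) completed the 5. No called run of members exceeded 150 kb among rises or 100 kb among falls. These regions stayed in A in every library, since the rule asks for it.

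The comparison of Early with Basal asked the same of 1 library. The mean PC1 of strong A bins was 1.46 in Early, against 1.4995 and 1.4975 in Basal (difference -0.037), or 1.45 in Early, against 1.499 and 1.497 in Basal, without chromosomes 16 and 19. Early was the lower one on 12 of 18 chromosomes, lowest relative to Basal on chromosome 5 (-0.13) and highest on chromosome 19, at 1.89 in Early, against 1.35 and 1.34 in Basal (63 bins, difference 0.54). Chromosome 16 had 1.76 in Early, against 1.56 in both Basal libraries (0.20).

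**Figure D5:**
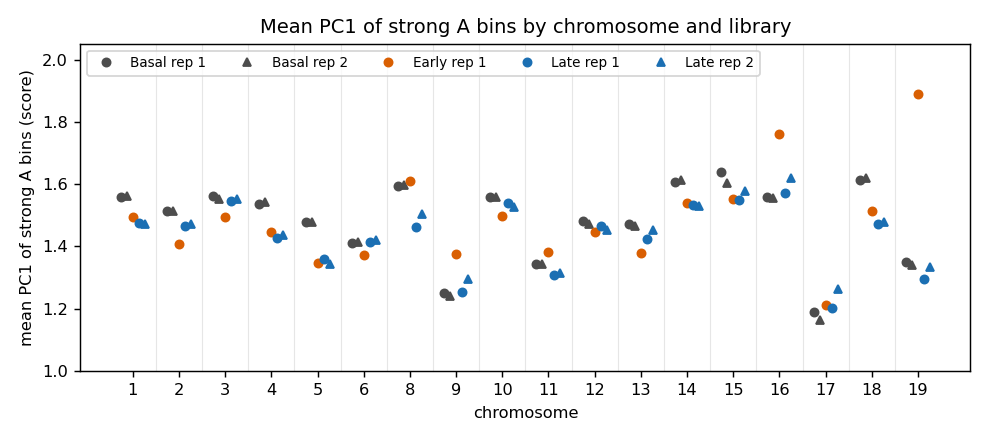
Mean PC1 score of strong A bins (vertical axis, starting at 1) by chromosome (horizontal axis) in each library; colour marks the state and the symbol the replicate. The Early points on chromosomes 16 (1.76) and 19 (1.89) lie above all other libraries there.

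In limma 418 strong A bins (7.13%) were called between Early and Basal, 171 higher and 247 lower in Early, against 19.9% of all bins (9.97% higher and 9.98% lower). Early is 1 library, whose spread the fit takes from the Basal and Late replicates, and the rule held each of its values above 1, so these counts too are a description. Chromosomes 19 (37 bins) and 16 (34 bins) led the higher ones, and chromosomes 1 (33 bins), 2 (31 bins) and 18 (28 bins) the lower ones. The split was 121 higher and 102 lower with quantile-normalised values and 31 higher and 11 lower with libraries weighted by local noise. Leaving out Basal replicate 1 gave 61 calls and Basal replicate 2 gave 62, while leaving out Late replicate 1 or Late replicate 2 gave 1305. A 10 Mb running mean removed gave 109 higher and 87 lower.

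Among runs of called bins, the largest mean rise in Early was on chromosome 16 from 90350001 to 90450000, at 2.23 in Early, against 1.08 and 1.32 in Basal (difference 1.03). Chromosome 16 from 92450001 to 92500000 (0.98) and from 91000001 to 91100000 (0.94), and chromosome 19 from 5350001 to 5400000 (0.94) and from 7000001 to 7200000 (0.91), made up the rest. The largest mean fall was on chromosome 15 from 81600001 to 81650000, at 1.04 in Early, against 1.96 and 1.88 in Basal (-0.89). Chromosome 18 from 38400001 to 38450000 (-0.87) and from 34950001 to 35000000 (-0.82), chromosome 10 from 127550001 to 127650000 (-0.81) and chromosome 14 from 65550001 to 65650000 (-0.81) followed. After removal of a 10 Mb running mean, 1 of these 10 regions was still called.

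The comparison of Late with Early shares the Early library with the one above, and the Late libraries with the first. In limma 196 strong A bins (3.34%) were called, 48 higher and 148 lower in Late, against 12.7% of all bins (6.28% higher and 6.44% lower). The same limits hold, with 1 Early library and the values that chose the members. Chromosomes 19 (41 bins) and 16 (28 bins) led the lower ones. Leaving out Basal replicate 1 or Basal replicate 2 gave 83 calls, Late replicate 1 gave 641 and Late replicate 2 gave 586. All sequences kept as deposited gave 0 (908 members at an unadjusted p under 0.05 in limma as reported, 751 under this setting), and weights by local noise gave 8.

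Among runs of called bins, the largest mean fall in Late, relative to Early, was on chromosome 19 from 5350001 to 5400000, at 1.24 and 1.03 in Late, against 2.18 in Early (difference -1.05). Chromosome 16 from 93800001 to 93950000 (-1.02), from 90400001 to 90450000 (-0.97) and from 21700001 to 21850000 (-0.89), and chromosome 19 from 6600001 to 6650000 (-1.01), were the others. The largest mean rise was on chromosome 16 from 4650001 to 4700000, at 1.896 and 2.34 in Late, against 1.095 in Early (1.02). Basal stood at 1.85 and 1.88 there. Chromosome 14 from 122500001 to 122550000 (0.76), chromosome 5 from 24150001 to 24200000 (0.73), chromosome 10 from 59100001 to 59150000 (0.73) and chromosome 16 from 44100001 to 44150000 (0.72) completed the 5.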

How the data were processed

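Hi-C was measured in 5 libraries of sorted neuronal nuclei. Each deposited table holds PC1, a signed score per 50 kb bin, made by the authors with HOMER on mm9, per the submitters' processing notes. The sources used here give no version, aligner, read filter or rule for the sign. Coordinates are 1-based in mm9.

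Bins were joined by position (50542 in all 5 libraries). PC1 was compared as deposited with limma 3.58.1 (R 4.3.3), 5 libraries in 1 fit, 2-sided, with Benjamini-Hochberg adjustment over 47652 bins: X and the autosomes on which every pair of libraries had an r of at least 0.5. Chromosome 7 failed (lowest r -0.976). The fit had 2 residual degrees of freedom plus 6.60 from the prior, and the single Early library was taken to vary as the other groups do. P-values measure only the spread between libraries, which may be technical. The code was tested on simulated data. Python 3.11.15, pandas 2.3.3 and scipy 1.17.1 did the rest. Members, lists and rules were chosen with earlier results of these data known. Named regions were the 10 longest runs, the 5 highest, and the 5 runs of called members per direction with the largest mean difference. RefSeq's tables are on GRCm38.p6, so genes and sequences were not placed in bins and the planned gene lists were not run. Alternatives covered scaling, bins, thresholds, prior, weights and left-out libraries.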

Additional observations from a re-analysis of the deposited data

How the results depend on the processing

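The number of strong A bins was 5854 to 8311 under the other alternatives, among them each left-out library (6019 to 7298), but 3390 with a threshold of 1.2 and 2446 with a 10 Mb running mean removed. The mean share retained from Basal to Late was 75.2% with a threshold of 1.2, and the distal enrichment (1.54 times the share of all bins) was 1.46 and 1.63 with thresholds of 0.8 and 1.2. The Late minus Basal mean of -0.050 became 0.0053 with quantile normalization, while the other settings kept its direction (-0.101 to -0.045). All of these settings were chosen for this value after seeing the data.

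Counts of called members depended most on the settings. With all sequences as deposited they were 0 (Late versus Basal; 550 at an unadjusted p under 0.05), 20 (Early versus Basal) and 0 (Late versus Early; 751). In the same order of comparisons they were 177, 196 and 128 with a 10 Mb running mean removed, 211, 638 and 365 with a trend in the prior, 252, 42 and 8 with weights by local noise, and 385, 939 and 517 at an adjusted p of 0.1. Quantile normalization gave 223 calls in Early against Basal and 118 in Late against Early. Leaving out each library gave 3 to 769, 61 to 1305 and 83 to 641. The cause was not tested. All sequences as deposited include chromosome 7 with the opposite sign in Late replicate 1. Of 400 recomputed calls of named regions 90 were lost and 0 changed sign. Part of this was fixed in advance, since the looser adjusted p of 0.1 cannot lose a call. The choice of bins, the trend in the prior and a left-out library outside the comparison leave the difference as it was. All 10 Late versus Basal regions were lost with all sequences as deposited and 9 without either Basal replicate.

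With the replicate number as a block the counts were 123, 372 and 142. Same-numbered Basal and Late libraries deviated with an r of 0.0101 from their group means over all fitted bins, so the numbers give no sign of pairing. Depth is unknown, and with 2, 1 and 2 libraries small differences cannot be resolved.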

Other observations

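The 9 bins above 1 in both Basal libraries and negative in both Late libraries lay in 6 places. Chromosome 16 held 6 of them between 6050001 and 6850000. At 6050001 to 6150000 the mean PC1 of 2 bins was -0.17 and -0.62 in Late, against 1.15 and 1.16 in Basal. The other 3 were on chromosome 10, from 89650001 to 89700000 and from 89850001 to 89900000, and on chromosome 3 from 56750001 to 56800000. These bins were looked up after their values were seen, and this difference was the one that chose them.

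Outside the rule's chromosomes, 340 of 3002 X bins were above 1 in each library. On chromosome 7, 484 of 2684 bins were, once the sign of Late replicate 1, opposite to that of the other 4 libraries there, was inverted. Of the 131 bins above 1 in both Basal libraries and negative in Early, 55 were on chromosome 16 and 52 on chromosome 19. Among 428 windows of 5 Mb, 166 held no strong A bin, and the densest, on chromosome 1 from 132950001 to 137950000, held 86 in 100 bins.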
